A study of Homo sapiens with 40 samples.

Results

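Chromatin accessibility was compared between BT474R cells treated with epidermal growth factor (EGF) for 24 h and BT474R cells treated with vehicle for 24 h. The comparison used 4 of the 40 libraries of the series, 2 for EGF (EGF-BT474R) and 2 for vehicle (control-BT474R), each chosen by its sample title. BT474 is an established breast ductal carcinoma line that overexpresses HER2, the receptor encoded by ERBB2, and BT474R is a single clone (clone 5) that was grown out of it under the anti-HER2 antibody trastuzumab. Both groups were serum starved before treatment and the vehicle was water, so they shared the clone, the starvation and the time and differed in the ligand. The other libraries came from both lines before treatment or after 1, 12 or 24 h with vehicle, EGF or heregulin (HRG, which binds HER3 and HER4), and they entered only where they were set beside these 4. By the methods of the study each treatment was done in duplicate. Nothing in the labels said that the 2 libraries of a group came from independent cultures. The p-values below therefore measure the spread between these libraries, which may be technical.

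EGF binds its receptor EGFR, which dimerizes with itself or with HER2 and passes the signal through RAS, RAF and MEK to the kinase ERK and in parallel through PI3K to AKT. ERK acts on immediate early genes such as FOS, JUN and EGR1, whose products include the subunits of AP-1, a dimeric transcription factor that binds a palindromic 7-base element in promoters and enhancers. The same pathway turns on its own inhibitors, among them the dual-specificity phosphatases (DUSP), the Sprouty and SPRED proteins and ERRFI1. In ATAC-seq a transposase inserts adapters into accessible DNA, and a peak is an interval in which a library holds more such insertions than its surroundings.

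For each library the peaks called in it were used, each with a score, the area under its curve of significance. The peaks of the 4 lists on chromosomes 1 to 22 and X were merged where they overlapped by 1 bp or more, which gave 55523 regions with a median width of 520 bp. A region was counted as gained when both EGF lists and neither control list had a peak in it, and as lost in the opposite case. By this rule 6080 regions were gained (11.0% of all regions) and 673 were lost (1.21%), while 38141 regions (68.7%) had a peak in all 4 lists and are called shared below. All coordinates are GRCh38, counted from 1, and gene starts are those of GENCODE release 44.

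The sequences below are 200 bp around a summit. They come from the strongest gained regions with an AP-1 element there, since this element set the gained regions apart from the others. Among the sequences is that of the strongest lost region, which lay beside EGR1 and held none within these 200 bp. They are given on the forward strand, from 5′ to 3′, with each match to TGANTCA in capitals, where N is any base and the pattern reads the same on both strands.
Gained, distal to TNFAIP3 (chr6:137978412-137978611): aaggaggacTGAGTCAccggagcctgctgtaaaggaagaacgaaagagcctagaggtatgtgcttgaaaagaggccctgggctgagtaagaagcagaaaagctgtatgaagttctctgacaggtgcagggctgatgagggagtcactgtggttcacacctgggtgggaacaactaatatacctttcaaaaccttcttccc
Gained, ABR intron (chr17:1111375-1111574): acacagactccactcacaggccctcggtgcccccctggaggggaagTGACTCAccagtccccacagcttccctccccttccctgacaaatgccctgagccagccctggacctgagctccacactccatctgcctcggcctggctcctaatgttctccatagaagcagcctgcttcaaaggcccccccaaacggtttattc
Gained, distal to PTPN1 (chr20:50440879-50441078): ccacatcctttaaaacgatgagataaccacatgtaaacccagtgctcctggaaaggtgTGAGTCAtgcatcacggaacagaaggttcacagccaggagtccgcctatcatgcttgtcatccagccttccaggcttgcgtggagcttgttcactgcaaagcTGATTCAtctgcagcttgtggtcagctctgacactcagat
Gained, STRA6 intron (chr15:74193395-74193594): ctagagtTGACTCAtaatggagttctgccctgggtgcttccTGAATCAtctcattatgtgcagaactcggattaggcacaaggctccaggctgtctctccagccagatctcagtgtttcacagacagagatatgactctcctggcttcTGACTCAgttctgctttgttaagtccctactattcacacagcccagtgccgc
Gained, IMMP2L intron (chr7:111499181-111499380): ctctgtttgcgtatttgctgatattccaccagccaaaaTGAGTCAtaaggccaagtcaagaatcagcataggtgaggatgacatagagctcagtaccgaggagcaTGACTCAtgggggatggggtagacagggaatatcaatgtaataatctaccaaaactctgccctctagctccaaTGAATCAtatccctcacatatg
Lost, downstream of the EGR1 start (chr5:138469694-138469893): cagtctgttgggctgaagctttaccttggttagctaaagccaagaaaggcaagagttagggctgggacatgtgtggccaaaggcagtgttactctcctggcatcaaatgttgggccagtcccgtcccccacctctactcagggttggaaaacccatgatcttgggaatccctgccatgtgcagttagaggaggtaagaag
The STRA6 and IMMP2L windows each held 3 matches, the PTPN1 window 2 and the TNFAIP3 and ABR windows 1.

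The EGF lists were longer than the control lists, and this touches every count of gained and lost regions. The EGF lists held 52126 and 51080 peaks and the control lists 41833 and 45799, so that both EGF lists exceeded both control lists, by 7787 peaks on average (1.18-fold; exact permutation test, two-sided, p = 0.333, the smallest that 2 against 2 allows). The lists hold no read totals, so their sequencing depth is unknown here, and the absence of a peak means that none was called and does not show closed chromatin. The replicates shared 85.6% (EGF) and 83.5% (control) of their covered bases as a Jaccard index, and each EGF list shared 74.3% to 77.7% with each control list. When the 41833 highest-scoring peaks of each list were used, 3043 regions were gained and 2104 lost, so gained regions were 59.1% of both against 90.0% with the full lists. Leaving out 1 library gave 9371 gained regions without control replicate 2, 1682 lost regions without control replicate 1 and 1196 lost regions without EGF replicate 1. Of the 6080 gained regions, 2470 (40.6%) overlapped a region of the 3043, which is 81.2% of those 3043.

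The gained regions were mostly weak, distal peaks. Within a list each peak was given its rank percentile by score, from 0 for the weakest to 100 for the strongest. The median over the gained regions was 18.8 and 19.2 in the EGF lists, and 268 of the 6080 (4.41%) ranked above 50 in both. The lost regions had medians of 11.5 and 15.9 in the control lists, and 6 of 673 ranked above 50 in both. Of the gained regions 15.2% lay within 1 kb of a transcript start, beside 10.5% of the lost, 43.6% of the shared and 35.8% of all regions. Gained regions made up 4.64% of the 19871 regions at promoters and 14.5% of the 35652 regions elsewhere. Their median distance from the nearest protein-coding start was 27302 bp, with 40.7% in introns and 41.9% between genes. Mean GC content within 100 bp of the summit was 49.7% for gained, 43.7% for lost and 56.8% for shared regions.

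Among 20 motifs searched, AP-1 had the widest gap in percentage points between gained and lost regions. It was found within 100 bp of the summit in 2973 gained regions (48.9%), 26 lost regions (3.86%), 13.2% of shared regions and 18.2% of all regions. Away from promoters the shares were 50.2%, 3.99%, 18.2% and 23.3%. The form TGAGTCA was present in 41.5% of gained regions and TGAATCA in 10.4%. More than 1 match was found in 521 gained regions (8.57%), in 0 lost regions and in 1.24% of shared regions. The median distance from the summit to the nearest match was 28 bp in the gained regions that held one, and 46.0% of them had it within 25 bp. The share rose with peak strength, from 32.4% of the 1454 gained regions with a mean percentile up to 10 to 68.0% of the 672 regions between 40 and 60, and was 63.9% of the 97 above 60. With equal numbers of top peaks it was 58.2% of gained regions, 3.94% of lost regions and 16.9% of all. A window of 250 bp on each side gave 57.2%, 10.8% and 25.3%.

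**Figure D1:**
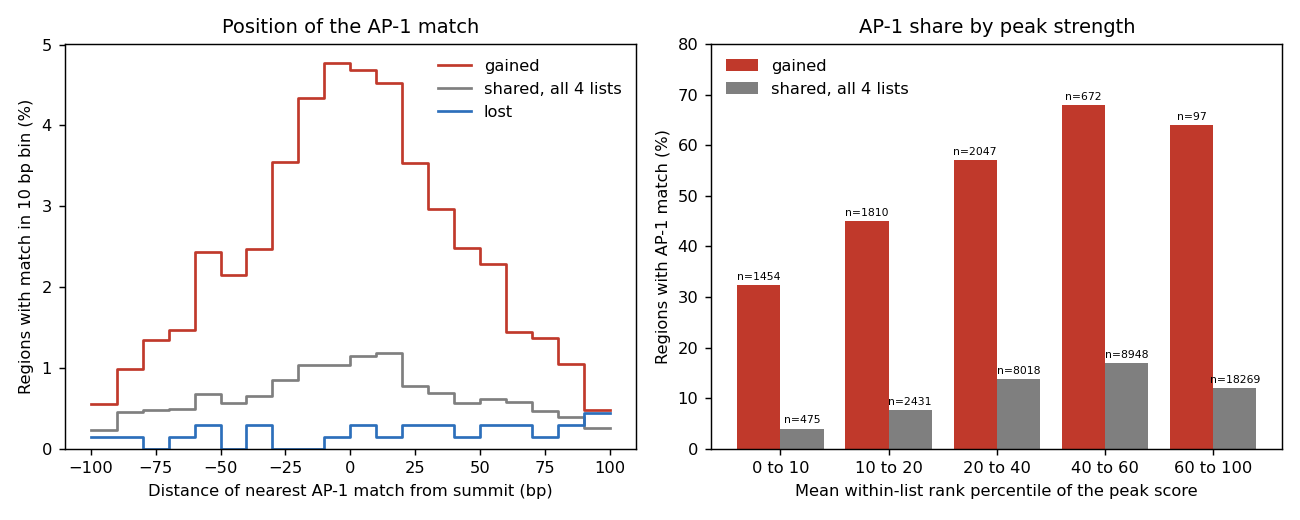
Left: share of gained (red), shared (grey) and lost (blue) regions whose AP-1 match nearest to the summit fell in each 10 bp bin, against its distance from the summit in bp. Right: share of regions with a match by the mean within-list rank percentile of the peak score, with the number of regions above each bar. Gained regions held a match in 32.4% to 68.0% of cases depending on strength, shared regions in 4% to 16.95%.

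Other elements were more frequent in the lost regions. TGTTTAC, the core of forkhead (FOXA) sites, was found in 19.2% of lost, 6.79% of gained and 7.58% of all regions. The GATA-factor motif AGATAA was found in 14.3%, 9.62% and 7.27%, and ACANNNTGT (androgen and glucocorticoid receptor half-site pair) in 12.0%, 7.53% and 6.26%. Outside promoters the FOXA shares were 20.4% of lost, 7.21% of gained and 9.93% of all regions. Those of GATA were 14.8%, 10.2% and 9.46%, and those of ACANNNTGT 12.1%, 7.62% and 7.99%. FOXA and GATA factors and the androgen receptor are known for their place at enhancers of luminal breast cells. Elements typical of CpG-rich promoters were rarer in both classes than in all regions: GGGCGG (SP/KLF) was found in 6.92% of gained, 3.86% of lost and 22.8% of all, and CCGGAAG (ETS) in 1.68%, 0.892% and 4.65%. Away from promoters ETS matches were 1.55% of gained and 1.58% of all regions. The interferon-response element (ISRE) was found in 2.07% of gained and 1.59% of all regions, and NF-kB sites in 4.36% and 5.44%. All 20 motifs were searched on both strands, and the AP-1 pattern shares bases with CREB/ATF sites, which were found in 0.312% of gained and 0.802% of all regions.

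**Figure D2:**
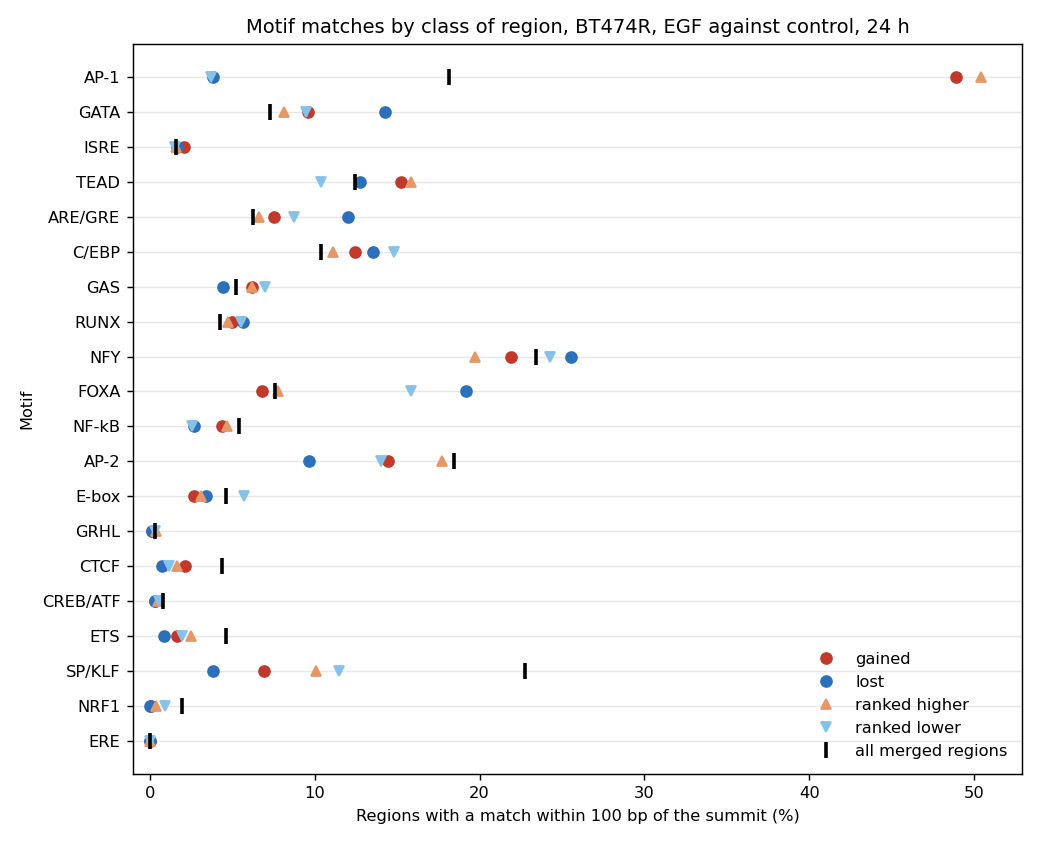
Share of regions (horizontal axis, %) with each of 20 motifs (vertical axis) within 100 bp of the summit, for gained and lost regions, for shared regions ranked higher or lower after EGF and for all merged regions (black bars). AP-1 stood at 48.9% and 50.4% in the gained and higher-ranked regions and at 3.86% and 3.75% in the lost and lower-ranked ones, and FOXA stood at 19.2% and 15.8% in the lost and lower-ranked regions against 7.58% of all.

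The strongest gained region, chr13:30829165-30830910, lay between genes, 75997 bp upstream of the nearest protein-coding start, MEDAG. It reached percentiles of 94.5 and 94.04 in the EGF lists, the highest of the gained regions. It had a peak in 11 of the 16 other BT474R libraries and in 0 of the 20 BT474 libraries. The next were an intron of PECAM1 (chr17:64326260-64327050; 79.8 and 77.7) and the promoter of ITGB5 (chr3:124878569-124879254; 75.2 and 79.5), the integrin β5 subunit, which had a peak in all 20 BT474 libraries. A region 110925 bp downstream of the start of TNFAIP3, an inhibitor of NF-kB signalling, stood at 75.9 and 77.2, and 13 of 16 BT474R but 0 of 20 BT474 libraries had a peak there. The intronic region of ABR (chr17:1110905-1111881; 76.97 and 75.8), was found in 5 other BT474R libraries, all treated with a ligand for 12 or 24 h, and in no BT474 library. A further 6 of the 12 strongest lay in introns of ADORA1, FGD5, STRA6 and IMMP2L and upstream of PTPN1 and TM4SF1, with mean percentiles from 73.7 to 76.7. In BT474R none of the 12 had a peak in either 12 h control library, and 9 of the 12 had one in at least 1 of the 1 h control libraries. Of all gained regions 0.280% and 4.16% had a peak in the 2 libraries of the 12 h control. A further look at all gained regions showed 46.7% with no peak in either 1 h control library.

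The strongest lost region, chr5:138469305-138471081, was 4315 bp downstream of the start of EGR1, an immediate early zinc-finger factor. It stood at percentiles of 71.8 and 72.5 in the control lists. In BT474R it had a peak in both baseline libraries and in both EGF libraries at 1 h. At 12 h neither EGF library and neither HRG library had a peak there, while both control libraries had one. At 24 h 1 of the 2 HRG libraries had one. All 20 BT474 libraries had a peak there. The other 5 were a repeat-rich interval of chromosome 15 (chr15:20340391-20342541), introns of ADI1, ANKFN1 and CEP162 and a region 41168 bp upstream of NKD2, at mean percentiles of 53.9 to 70.2. Each of the 6 had a peak in at least 1 HRG library of BT474R at 24 h.

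Gained and lost regions were then set against genes, each region within 100 kb being assigned to the nearest protein-coding start. By this assignment 17.5% of the 19962 protein-coding genes had at least 1 gained region and 2.26% had at least 1 lost region, and 0.917% and 0.0501% had a promoter that was gained or lost with no shared region at any of their starts. The label of the cells was checked first. All 18 luminal and HER2-positive markers, among them ERBB2, GRB7, KRT8, KRT18, GATA3, FOXA1 and ESR1, had a shared promoter region. Of 18 markers of other cell types, 4 had one (CDH5, COL1A1, VIM and ZEB1) and 12 had no promoter peak in any of the 4 lists, including PTPRC, CD3E, PECAM1 and KRT14. Over all protein-coding genes 63.3% had a shared promoter region. In the list of PI3K, AKT and mTOR genes described below it was 96.6%, so a high share was not particular to the luminal markers. The promoter of KRT5, a basal keratin, was gained (chr12:52521247-52521559; 35.6 and 35.7; with an AP-1 match).

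The list with the largest share of genes with a gained region was that of the ERK pathway feedback inhibitors, with 16 of 21 (76.2%, against 17.5% of all genes) and 30 gained regions. All 21 had a shared promoter region, against 63.3% of all protein-coding genes. DUSP4, a nuclear ERK phosphatase, had 4 gained regions, the strongest (chr8:29329926-29330866) at 59.8 and 29.01. DUSP1 had 3, at 4536, 6398 and 7231 bp upstream of its start, and 1 lost region 1917 bp downstream of it. SPRED2 had 3. Outside this list, in that of the immediate early genes, the pseudokinase TRIB1 had 3, of which chr8:125410638-125411079 stood at 43.6 and 44.3. EGR1 had 1 gained region, at a mean percentile of 23.7, beside its lost one. No gained region was assigned to DUSP2, SPRY2, SPRED3, SOCS2 or RASA1.

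The other lists ran from 54.8% to 20% of genes with a gained region. Luminal and HER2-positive markers stood at 8 of 18 genes (44.4%) and markers of other cell types at 6 of 18 (33.3%), so every list, this one included, lay above the 17.5% of all genes. The EGF receptor family and ligands stood at 3 of 15 (20%). A gained region was assigned to 17 of 31 genes (54.8%) of the invasion, protease and migration list. PLAU, the urokinase protease, had a gained promoter (chr10:73909039-73909627; 54.7 and 54.5; with an AP-1 match) and 2 further gained regions. LAMA3, a laminin subunit of epithelial basement membranes, had 5, of which 3 held an AP-1 match. S100A10, a partner of annexin A2 in plasminogen activation, had 3, all with a match. Of the hypoxia and glycolysis list, 19 of 40 genes (47.5%) had one. PFKFB3, which makes the activator of phosphofructokinase, had 5, all with an AP-1 match and between 23.8 and 56.4 in mean percentile. EGLN3, an oxygen-sensing prolyl hydroxylase, had 4, and HK2 and VEGFA had 3 each. The glucose transporter SLC2A3 had a gained region in an intron (chr12:7929203-7929657; 44.3 and 33.2), 6611 bp downstream of the nearest protein-coding start. That region counted as a promoter only through another annotated start of the gene. VEGFA also had a weak lost region at its start, at percentiles of 0.256 and 17.1, beside a shared promoter region.

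In the TGF-beta and epithelial-mesenchymal list 11 of 31 genes (35.5%) had a gained region. SMAD3, a receptor-activated SMAD, had 7, the strongest of them at an internal start of the gene (chr15:67174820-67175373; 61.5 and 64.1). The inhibitory SMAD7, the repressor SNAI1 and the epithelial factor GRHL2 had 3 each. Among lipid genes (11 of 25 genes; 44%) ACACA had 4 gained regions and 1 lost, and ACSS2 and INSIG1 had 3 each. Among PI3K, AKT and mTOR genes (11 of 29 genes; 37.9%) FOXO3 had 6 and IRS2 and RPTOR had 3 each. Of the luminal markers EPCAM had 3, of the hypoxia list CD99 had 3, and of the NF-kB list (11 of 34 genes; 32.4%) LIF had 3 and ICAM1 had a gained promoter of low rank (10.1 and 10.1). The interferon list (12 of 50 genes; 24%) had gained promoters at IFI35 (15.8 and 18.2) and OAS3 (14.6 and 3.48), also of low rank. The share of antigen processing genes was 5 of 19 genes (26.3%), of cell cycle entry genes 7 of 29 genes (24.1%), of estrogen and androgen receptor targets 9 of 26 genes (34.6%), of immediate early genes 10 of 27 genes (37.04%) and of AP-1 subunits 3 of 14 genes (21.4%). The number of regions of any kind near a gene was not taken into account, and these shares were not tested.

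Of the receptor family itself, EGFR had 2 gained regions, 1 in an intron (chr7:55158614-55159125; 28.1 and 43.7; with an AP-1 match) and 1 78077 bp upstream of its start. ERBB2, ERBB3 and ERBB4 had none, and neither gained nor lost promoters. Over all genes IQSEC1, a guanine exchange factor of ARF6, had the most gained regions, with 8, followed by SMAD3, the actin-binding SVIL and the phosphodiesterase PDE4B with 7 each, and the promoter of PDE4B was itself gained. HIVEP3, HPCAL1, FOXO3, PLA2G2C, KCNMA1 and DLG5 had 6 each, and PFKFB3, TENM4, PLB1, MICAL2 and HEY1, a Notch effector, had 5 each, the 5 strongest by mean percentile of the 21 genes with that number. The regions of IQSEC1 were weak, from 7.91 to 35.6 in mean percentile, and 1 of its 8 held an AP-1 match, whereas 5 of 6 at HIVEP3 and 4 of 5 at HEY1 held one.

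Regions with a peak in all 4 lists can differ only in strength, which was compared by rank. The 38141 shared regions were ranked by score in each library on a scale from 0 to 100 and tested with limma. The length of the lists thus did not shift the ranks, though it bore on which regions had a peak in all 4 lists. After EGF 2165 regions ranked higher (5.68%) and 1174 ranked lower (3.08%) at an adjusted p under 0.05, with median differences of 23.4 and -20.9 points and a median over all shared regions of -0.99. The higher-ranked regions moved from a median rank of 33.9 in control to 64.7, and the lower-ranked ones from 55.1 to 28.6. Both classes were mainly distal, with 20.5% and 23.1% at promoters against 43.6% of the shared regions. An AP-1 match was present in 1091 of the higher-ranked regions (50.4%) and 44 of the lower-ranked ones (3.75%), against 13.2% of those tested. Among shared regions with an AP-1 match 21.7% ranked higher and 0.875% lower, and among those without one 3.24% and 3.41%. FOXA matches stood at 15.8% of the lower-ranked, 7.81% of the higher-ranked and 7.18% of all shared regions.

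The calls rested on both EGF libraries. Without either of them the test gave 0 regions in each direction (limma, adjusted p under 0.05; 8640 and 7289 regions at an unadjusted p under 0.05 without replicate 1 and replicate 2), and without a control library it gave 1804 higher and 500 lower (replicate 1) or 2281 and 774 (replicate 2). With the percentile within the whole list, which is shifted by list length to a median difference of 2.91, the split was 3124 higher and 268 lower.

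**Figure D3:**
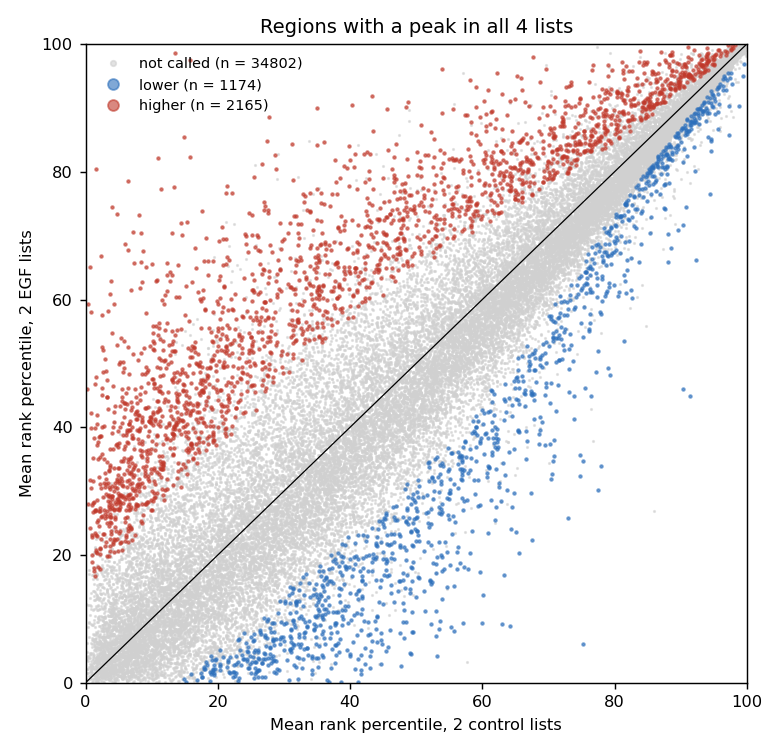
Mean rank percentile of each of the 38141 shared regions in the 2 EGF lists (vertical) against the 2 control lists (horizontal), with the line of equality. The 2165 regions ranked higher after EGF (red) lie above it and the 1174 ranked lower (blue) below it.

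Regions beside ERK target genes were among those with the smallest p. A region 4511 bp upstream of IER3, a stress-inducible ERK target (chr6:30748000-30750022; with an AP-1 match), stood at 98.3 and 98.7 in the EGF lists and 12.6 and 14.4 in the control lists, a difference of 85.02 ± 2.90 points (SE), limma adjusted p = 0.0126. A region 4704 bp downstream of the start of DUSP6, the cytoplasmic ERK phosphatase (chr12:89345480-89347900), stood at 97.2 and 97.7 in the EGF lists and 18.2 and 13.5 in the control lists, a difference of 81.6 ± 3.20 points (SE), limma adjusted p = 0.0126. At both loci the EGF values lay near the top of the lists and the control values near the bottom. The intron of SPC24, a kinetochore subunit (chr19:11136562-11139570), rose by 30.4 ± 0.966 points (SE), limma adjusted p = 0.0126, and the other 5 of this set rose by 9.94 to 14.8 points from ranks above 80: the shared start of PPP1R7 and PASK, the promoter of the hormone gene STC2, an intron of TFEB and regions near MKNK2 and ANKRD60.

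The regions with the smallest p among those ranked lower included the promoter of another immediate early gene. The promoter of IER2 (chr19:13151276-13153523), stood at 86.2 and 85.3 in the EGF lists and 97.5 and 97.1 in the control lists, a difference of -11.6 ± 0.545 points (SE), limma adjusted p = 0.0129. An intron of SDCCAG8 (chr1:243462418-243463342) stood at 3.58 and 8.51 in the EGF lists and 77.7 and 72.8 in the control lists, a difference of -69.2 ± 3.93 points (SE), limma adjusted p = 0.0129, which was the largest fall over all shared regions in this fit. An intron of TATDN1 and a region at the thyroglobulin gene TG, both on chromosome 8, fell by 46.5 and 44.4 points. The promoters of SBNO2 and HNRNPU and an intron near AHRR, the repressor of the aryl hydrocarbon receptor, fell by 8.54 to 18.8 points.

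Promoters of listed genes moved in both directions. Of 12644 protein-coding genes with a shared promoter region, 2.52% had a promoter region ranked higher and 1.72% one ranked lower. In the invasion, protease and migration list 5 of 21 tested ranked higher and 0 lower: ITGB1 (24.3 ± 3.51 points, SE), ITGA3 (13.7 ± 0.814), LAMA3 (13.3 ± 2.32), ITGB4 (10.96 ± 2.04) and S100A10 (8.35 ± 1.30). The integrins among them are laminin and matrix receptors of epithelial cells. The ITGA3 region stood at 91.8 and 92.7 in the EGF lists and 78.1 and 79.1 in the control lists (limma adjusted p = 0.0129). Of the AP-1 subunits 3 of 13 tested promoters ranked lower and 0 higher. When any region assigned to a gene was counted, 4 of 14 AP-1 subunit genes had one ranked higher and 3 one ranked lower. The shares over all protein-coding genes were 7.29% and 4.02%. The JUN promoter stood at 94.97 and 94.97 in the EGF lists and 99.4 and 99.4 in the control lists, a difference of -4.44 ± 0.281 points (SE), limma adjusted p = 0.0133, and those of FOSB and MAFF fell by 5.41 and 24.3 points. MAFF was not called with a replicate block (limma adjusted p = 0.0615), and neither FOSB nor MAFF with the percentile within the whole list (0.12 and 0.154), which leaves 2 and 1 of the 3. Without the mean-variance trend none of the 3 was called. Of the immediate early genes 4 of 26 tested promoters ranked lower (IER2, BTG2, KLF6 and ZFP36L1) and 1 ranked higher (IER3). With any assigned region counted, 7 of 27 of these genes had one ranked higher and 9 one ranked lower. The KLF6 region stood at 20.4 and 20.6 in the EGF lists and 55.6 and 56.7 in the control lists, a difference of -35.6 ± 3.24 points (SE), limma adjusted p = 0.0172. It was -4.78 points when all 20 BT474R libraries entered the fit (limma adjusted p = 0.824).

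Among the luminal markers the promoter of TFF1, a secreted trefoil peptide and estrogen target, ranked higher, at 61.1 and 65.8 in the EGF lists and 35.98 and 33.7 in the control lists (difference 28.6 ± 3.55 points (SE), limma adjusted p = 0.0223). Promoter regions of XBP1, the unfolded protein response factor, and KRT8 ranked lower, by 37.3 and 23.2 points, and the KRT8 difference changed sign to 0.35 when all 20 BT474R libraries entered the fit. Among estrogen and androgen receptor targets 4 of 19 ranked higher and 1 lower, and the largest difference was at KLK2, the kallikrein 2 gene (48.2 ± 4.09 points), with NDRG1 at 36.8 ± 5.83 and ABCC4 at 20.9 ± 3.69. IRF9, the DNA-binding subunit of the type I interferon response complex, ranked higher by 19.6 ± 2.11 points and ISG20 by 6.13 ± 1.03, 2 of the 22 tested genes of that list. In the ERK feedback list DUSP1 and DUSP16 ranked lower by 4.21 and 20.5 points and IER3 higher, out of 21. Of the hypoxia list ALDOA and NDRG1 ranked higher and EPAS1 lower, of the TGF-beta list BMP4, GRHL2 and TGFBR1 ranked lower, and of the PI3K list PIK3CD ranked higher and PIK3R1 and PHLPP1 lower. ME1 and MYCN ranked higher, by 3.00 and 6.56 points. No tested promoter of the antigen processing, NF-kB or receptor and ligand lists passed. The EGFR promoter region stood at 95.9 and 94.9 in the EGF lists and 97.3 and 96.1 in the control lists, a difference of -1.31 ± 0.603 points (SE), limma adjusted p = 0.227, and all regions at starts of ERBB2 and ERBB3 were likewise not called.

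Of these 38 promoter regions 18 ranked higher and 20 lower. With the percentile within the whole list all 18 higher calls remained and 5 of the 20 lower ones did, so most of the lower calls depended on the scale. With a replicate block 12 and 9 remained, without the mean-variance trend 6 and 5, and without either EGF library 0 and 0. The regions of IRF9, TFF1, ITGA3 and IER2 with the smallest p remained called in all 7 of the other settings and those of JUN and KLF6 in 6. Several lower calls held in few of the 7. DUSP1 and TGFBR1 remained called in 1, BMP4 in 2 and DUSP16 in 3. The BTG2 regions remained called in 2 and in 0, the latter with no value in 3 settings.

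**Figure D4:**
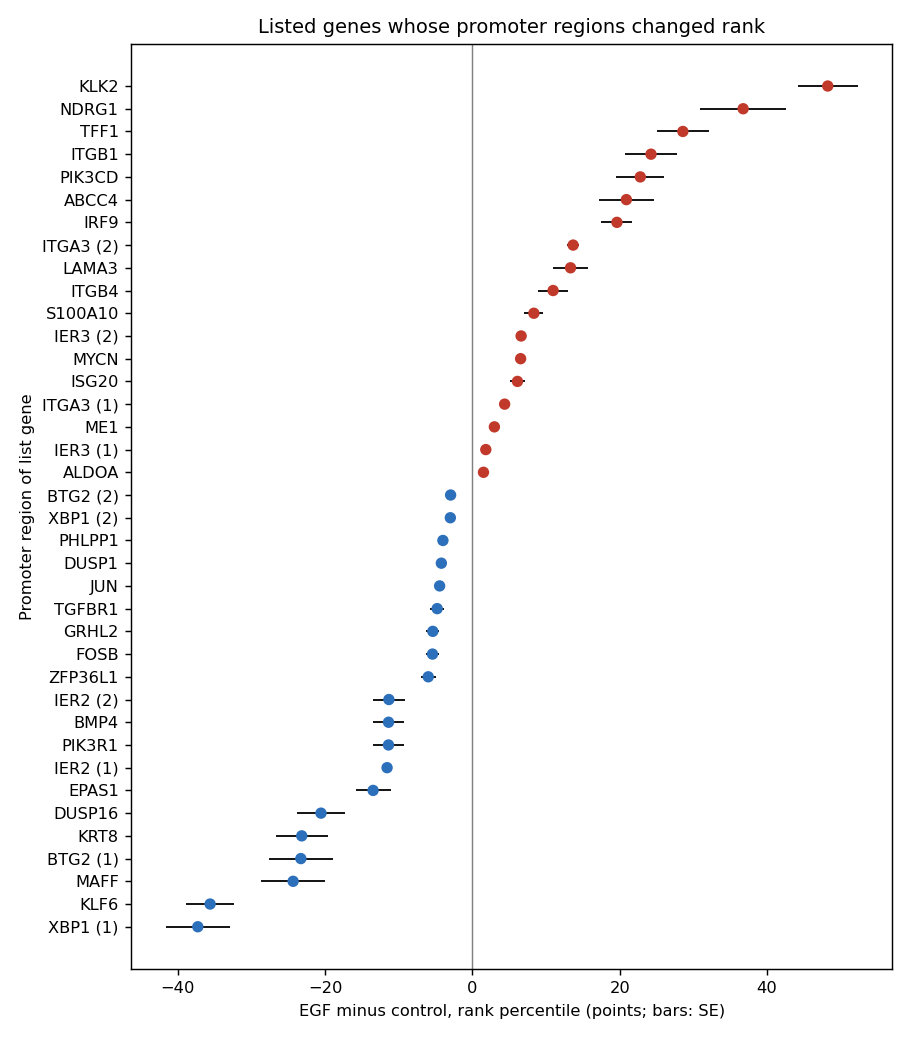
Difference in rank percentile, EGF minus control, of the 38 promoter regions of listed genes that passed the test (points, with bars for the SE of the limma fit). A number in brackets tells apart regions of the same gene. Values run from -37.3 at XBP1 to 48.2 at KLK2, and the AP-1 genes JUN, FOSB and MAFF lie on the negative side.

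The gained and lost regions were next looked up in the 36 libraries that did not choose them. Of the 6080 gained regions 755 (12.4%) had a peak in none of the 36, whereas every lost region had a peak in at least 1. In BT474R the gained regions had a peak in 25.01% of cases at baseline (35.4% and 14.6% in the 2 libraries), 45.4% in the 1 h control (47.5% and 43.3%) and 2.22% in the 12 h control (0.280% and 4.16%). In EGF-BT474R they had a peak in 43.9% of cases at 1 h (49.2% and 38.6%) and 19.3% at 12 h (21.96% and 16.7%). Of the gained regions 2277 (37.5%) had a peak in both 1 h control lists. The lost regions had a peak in 90.1% of cases at baseline (96.6% and 83.7%) and 94.1% in the 1 h control (94.7% and 93.5%). In the 12 h control it was 47.6%, with 29.3% and 66.0% in its 2 libraries. In EGF-BT474R it was 77.0% at 1 h (82.8% and 71.2%) and 8.92% at 12 h (9.51% and 8.32%). The lists differed in length here as well, from 32479 peaks (12 h control, replicate 1) to 56494 (1 h control, replicate 1) among the BT474R libraries.

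The share with an AP-1 match was higher among gained regions without a peak in the other vehicle and baseline lists of BT474R. Of the gained regions 2632 (43.3%) had a peak in none of the 6 other BT474R vehicle and baseline libraries, and 66.5% of these held an AP-1 match. Of the 3437 with a peak in 1 to 5 of the 6, 35.5% held one. The share was 24.4% among the 812 regions with a peak in both baseline libraries and 61.3% among the 3851 with a peak in neither. It was 68.9% among the 755 regions found in none of the 36 other libraries. These shares describe the regions and were not tested.

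**Figure D5:**
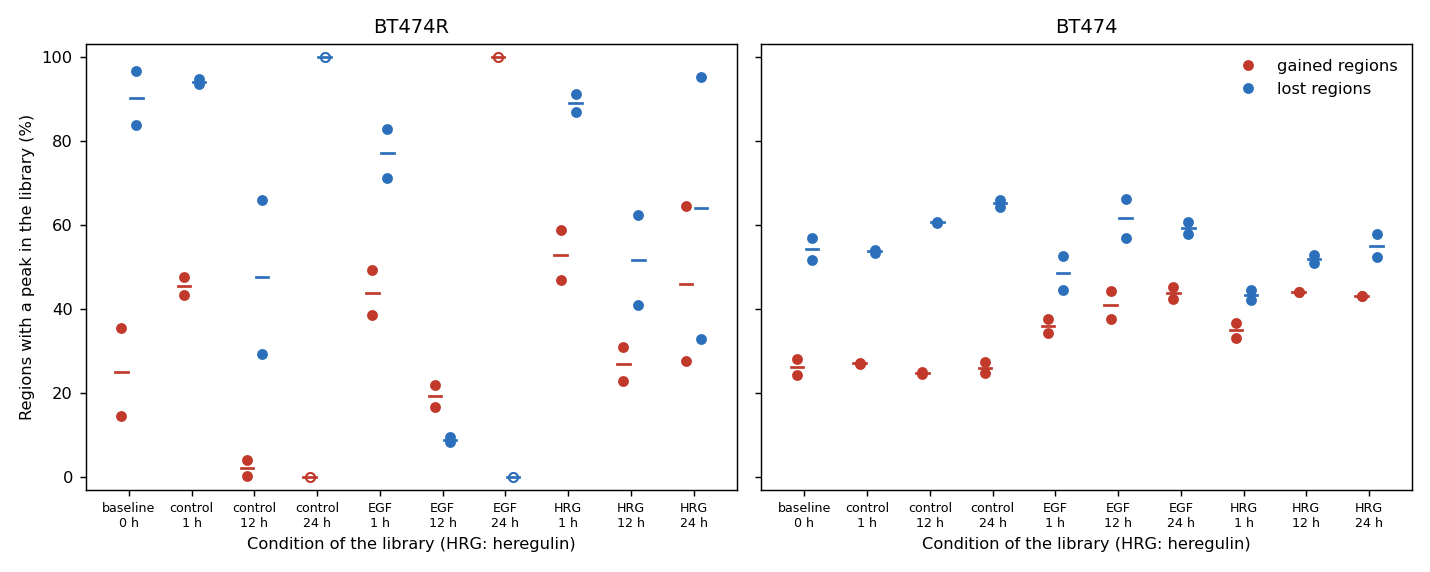
Share of the 6080 gained (red) and 673 lost (blue) regions with a peak in each library of BT474R (left) and BT474 (right) by treatment and time. Points are single libraries, dashes are means of the 2 libraries, and open points are the 4 libraries that chose the regions. In BT474 the ligand libraries lie at 33.0% to 45.3% for gained regions and the control libraries at 24.4% to 27.3%.

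BT474 cells, whose libraries took no part in the choice, had a peak in the gained regions more often after either ligand than after vehicle. The 6 EGF libraries of BT474 had a peak in 40.2% ± 4.39 (SD, n = 6) of the gained regions and the 6 controls in 25.9% ± 1.37 (SD, n = 6), which is 14.4 percentage points higher (two-sided exact permutation within time points, p = 0.00926, the smallest the 216 arrangements allow; adjusted over 3 tests, p = 0.0139). Every EGF library exceeded both controls of its time. The 6 HRG libraries stood at 40.6% ± 4.65 (SD, n = 6), 14.8 points above the same controls (exact permutation p = 0.00926; adjusted p = 0.0139), and the 2 comparisons share these controls. For the shared regions the same differences were 2.26 and 1.15 points and for the lost regions -3.37 and -9.71. The shared regions already had a peak in 87.4% to 89.0% of cases in the BT474 control groups. They could therefore rise less than the gained regions, and their differences are no like measure. When every list was held to the same number of top peaks the differences for the gained regions were 9.15 and 12.1 points.

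In BT474R at 1 and 12 h the 4 EGF libraries had a peak in 31.6% ± 14.97 (SD, n = 4) of the gained regions and the 4 controls in 23.8% ± 25.03 (SD, n = 4), which is 7.81 points higher (exact permutation within time points, two-sided, p = 0.222; adjusted p = 0.222; the smallest the 36 arrangements allow is 0.0556). The difference was -0.0315 without replicate 1 of the 12 h control, the shortest list. At 12 h both EGF libraries exceeded both controls, and at 1 h the groups overlapped.

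Whether the effect of EGF at 24 h differed between the lines was tested on the 32584 regions with a peak in all 8 lists of both lines. The effect was higher in BT474R at 362 regions (1.11%) and lower at 515 (1.58%; limma interaction, adjusted p under 0.05). The shared start of PPP1R7 and PASK (chr2:241148792-241150966) rose in BT474R from 78.9 and 78.7 in control to 96.2 and 95.7, and stood in BT474 at 96.6 and 97.00 in control and 96.2 and 97.1 with EGF (difference of effects 17.3 ± 0.677 points (SE), limma adjusted p = 0.000846). The promoter region of INHBB, the inhibin and activin βB subunit, went from 75.5 and 76.4 to 90.9 and 90.9 in BT474R and from 95.8 and 95.7 to 94.9 and 95.6 in BT474. At MYH9 (non-muscle myosin) and CRYM the difference came from BT474, where EGF went with lower ranks (93.5 and 94.5 to 72.6 and 73.7 at CRYM) and BT474R stayed between 93.7 and 94.8. In the opposite direction an intron of PIP4K2B (chr17:38785910-38787494) went from 70.98 and 71.1 to 90.3 and 90.3 in BT474 and from 97.9 and 97.5 to 99.01 and 99.2 in BT474R (difference -17.9 ± 0.655 points (SE), limma adjusted p = 0.000846). Regions near RBM38, WASF2 and SCN7A also rose with EGF in BT474, with control ranks in BT474R at or above 85.97. Ranks end at 100, so a region near the top of the control lists of a line could rise little further there, and the differences at these regions were read on that bounded scale. Of the 362 regions 63.8% lay at promoters and 20.2% held an AP-1 match, of the 515 regions 23.7% and 12.6%, and of all tested 47.4% and 12.3%. In both directions together 190 and 163 regions passed without replicate 1 or 2 of the BT474 control, 251 and 430 without those of BT474 with EGF, 344 and 585 without those of the BT474R control, and 227 and 278 without those of BT474R with EGF.

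The effect at 24 h was likewise set against that at 12 h in BT474R, over 29009 regions. It was higher at 20 regions (0.0689%) and lower at 11 (0.0379%; limma interaction, adjusted p under 0.05). The promoter of TMEM160 (chr19:47047746-47048992) went at 12 h from 95.4 and 95.1 in control to 77.8 and 78.9 with EGF, and at 24 h stood at 93.9 and 93.3 and 92.8 and 93.01 (difference 16.2 ± 0.803 points (SE), limma adjusted p = 0.00258). The promoter of SARAF and an exon of LSS, lanosterol synthase, had the same order at 12 h, and of these 4 regions the INO80E promoter rose at 24 h. Of the 4 in the other direction, 2 lay at starts of PLEC, the linker protein plectin, and 1 was a distal region near TFAP2C, which went from 60.2 and 58.9 to 95.8 and 96.1 at 12 h and from 94.3 and 90.7 to 97.6 and 96.8 at 24 h. In both directions together 56 and 161 regions passed without replicate 1 or 2 of the 12 h control, 12 and 19 without those of the 24 h control, and 8 without either EGF library at 24 h.

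EGF and HRG at 24 h were compared directly in BT474R over 40862 regions. No region passed in either direction (0.0% higher and 0.0% lower; limma, adjusted p under 0.05; 5430 at an unadjusted p under 0.05; 5 with normal scores). The 2 HRG libraries differed in list length. Replicate 1 held 55289 peaks and had a peak in 64.5% of the gained and 95.1% of the lost regions, and replicate 2 held 44351 peaks and had one in 27.5% and 32.8%. Without replicate 1 of HRG 182 regions passed, 163 of them higher with EGF, and without replicate 2 14 passed. Both HRG libraries had a peak in 1492 of the gained regions (24.5%), whose median percentile in the EGF lists was 29.5, and neither had one in 1981 (32.6%), whose median was 14.9. Of the lost regions 645 of 673 had a peak in at least 1 HRG library.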

How the data were processed

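ATAC-seq peak lists of 40 libraries were used, 4 of them for the comparison described. By the methods of the study, adapters were removed with TrimGalore (0.6.6 in the submitters' processing notes), and the authors mapped reads to GRCh38.p13 with BBMap and called peaks with Genrich in each library. Whether Genrich's ATAC mode, which centres intervals on cut sites and so changes peak widths, was used is not given in the sources used here. The deposited score of a peak (column 7) is its area under the curve and was at least 200 in each list, so weaker peaks were not seen. It depends on depth and was used only for ranks within a list. The study's count model on reads could not be fitted to peak lists. The members, gene lists, tests and alternatives were chosen with earlier results of these data known.

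Peaks were merged at 1 bp overlap. Regions with a peak in all lists compared were ranked by score and tested with limma 3.58.1 (R 4.3.3) with a mean-variance trend and Benjamini-Hochberg adjustment; the test was tried on simulated data. Library shares were compared with an exact permutation test that kept time points apart. Promoters were 1 kb on each side of a GENCODE 44 start. Motifs were searched 100 bp on each side of the summit in the hg38 sequence. Named were the 12 gained and 6 lost regions of highest mean percentile, the 8 regions per direction of smallest p, 4 per direction for each interaction, list genes with a gained, lost or called promoter or with 3 or more gained regions, the EGF receptor family, and the 15 genes with most gained regions (ties by mean percentile); the call of list promoters by rank and the splits by earlier lists were added after the values were seen. Of the named regions, 1 gained and 1 ranked lower are not reported here. Alternatives were a score of at least 400, equal numbers of top peaks, 400 bp peaks, 50% cover, all sequences, other rank scales, no trend, all 20 BT474R libraries, a replicate block, 3 kb promoters, a 250 bp motif window and leaving out each library. Python 3.11.15, pandas 2.3.3, numpy 2.4.6, scipy 1.17.1, pysam 0.24.0 and matplotlib 3.10.9 were used.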

Additional observations from a re-analysis of the deposited data

Results flagged for a closer look

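The effect of EGF at 24 h differed between BT474R and BT474 at 877 of 32584 regions by a test of the difference itself (limma interaction, adjusted p under 0.05), 362 higher and 515 lower in BT474R. The effect of EGF in BT474R differed between 24 and 12 h at 31 of 29009 regions by the same kind of test, 20 higher and 11 lower at 24 h. The 8 named regions of each kept their direction in normal scores, with a replicate block and without each library in turn. Of the 8 for the times, 2 lost their call without either EGF library at 24 h and 1 without replicate 1 of the 24 h control.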

How the results depend on the processing

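Both tests of the gained regions in BT474 kept their direction and their side of the threshold in every alternative run. Peaks per library kept their direction in the 2 alternatives run. That test of 2 against 2 could not pass the threshold in any setting. With equal numbers of top peaks 3043 regions were gained and 2104 lost, 14.2% of the gained at promoters and 58.2% with AP-1. With a score of at least 400, 325 were lost, 17.2% of the gained lay at promoters and 45.3% held AP-1, and 1065 regions ranked higher and 473 lower. Promoters of 3 kb held 29.2% of gained regions and a 250 bp window gave AP-1 in 57.2%. Without the trend 1179 regions ranked higher, and on the within-list scale 268 ranked lower. Leaving out 1 library gave 6591 to 9371 gained regions and 932 to 1682 lost, 15.4% to 17.9% of the gained at promoters and 40.6% to 46.6% with AP-1, 0 to 2281 regions ranked higher and 0 to 774 lower, 163 to 585 regions for the lines, 8 to 161 for the times, 0 to 182 for EGF against HRG, and 13.3 to 15.5, 14.1 to 16.3 and -0.0315 to 15.7 percentage points for gained regions in BT474 with EGF, BT474 with HRG and BT474R with EGF, where the value of -0.0315 is without replicate 1 of the 12 h control. Normal scores gave 53 regions for the times and 5 for EGF against HRG. The KRT8 promoter difference was 0.35 in the fit of all 20 libraries. The causes were not tested.

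The labels give groups the same replicate numbers but no shared batch. The differences between replicates 1 and 2 of EGF and of control correlated across the 38141 shared regions at r = 0.119, over 2 pairs, so the numbers were not taken to pair the libraries. With a replicate block 1961 regions ranked higher and 814 lower, 519 differed between the lines, 15 between the times and 0 between EGF and HRG.

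Depth was unknown, and a score minimum of 200 hides weaker peaks.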
